A study of Mus musculus with 15 samples.

Results

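The genes described here encode the proteins of the cytosolic ribosome. They were chosen by name: protein-coding mouse genes whose symbol is Rpl or Rps followed by a number with an optional a, x or l, together with Rpsa, Rplp0, Rplp1 and Rplp2. Of 55450 genes in the deposited count table, 80 carried such a symbol, and 78 of them had a mean of at least 10 counts over the 15 mice. These 78 members comprised 31 genes of the small subunit and 47 of the large subunit. Rpl39l, with a mean of 2.27 counts, and Rpl10l, with 0 counts in every mouse, did not reach the minimum. All 78 members passed the expression filter that left 16920 genes for testing. The libraries were made from total RNA of the gastrocnemius of aged female C57BL/6JN mice over 17 months old, 1 mouse per library. The Low group carried at most 1 frailty marker (called robust in the sample labels) and the High group 2 or more (called frail). Frailty was scored and not randomised, and the labels give no batch. Control mice were sedentary, and Run mice were sampled 24 h after they had run downhill (22 degree decline, 13 m/min) for the second of 2 times. The groups were Low Control (mice D8, D9, D11 and D98), Low Run (D57, D61, D66 and D68), High Control (D23, D25 and D67) and High Run (D49, D52, D53 and D62), and values per mouse are given in that order throughout. Total counts ranged from 19395125 to 30699216 per library. The 9 skeletal muscle marker genes were detected in every library and summed to 119531 to 186584 CPM, the count scaled to library size with TMM factors.

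Each ribosome holds 1 copy of most of these proteins, so their mRNAs are made in broadly matched amounts in most cells. Their mRNAs start with a terminal oligopyrimidine (TOP) tract, through which the kinase mTOR and the binding protein LARP1 control their translation, and ribosome content is a main limit on protein synthesis in muscle. Skeletal muscle and heart additionally use Rpl3l, a striated muscle paralog of the large subunit protein Rpl3 that replaces it in a part of the ribosomes. The mouse genome also holds many single-exon retrocopies of ribosomal protein mRNAs, most of them annotated as processed pseudogenes.

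Those retrocopies bear on the counts of members that share sequence with them, because reads were counted where they aligned uniquely. The sequences of 2 trios are shown as examples of members with nearly all of their coding sequence shared. Each stretch of 60 bases was chosen because the copy holds it without a difference. The number of differing bases allowed in the paralog was also limited, so neither count measures how alike the genes are elsewhere. The first stretch covers coding bases 58 to 117 of Rpl3 (exon 2, chr15:80082469-80082528, minus strand, GRCm38). The copy of Rpl3 with the most counts, the processed pseudogene Rpl3-ps1, held the same 60 bases (chrX:13202629-13202688, plus strand), whereas Rpl3l at the same coding positions (exon 2, chr17:24728371-24728430, plus strand) differed at 17 of them. Capitals mark the bases of the paralog that differ from the first sequence of the trio.
Rpl3: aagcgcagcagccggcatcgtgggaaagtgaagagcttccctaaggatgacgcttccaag
Rpl3-ps1: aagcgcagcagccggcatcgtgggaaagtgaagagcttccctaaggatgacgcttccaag
Rpl3l: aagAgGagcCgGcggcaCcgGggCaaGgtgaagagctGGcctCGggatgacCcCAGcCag
Over the coding sequence, compared without gaps, Rpl3 and Rpl3l were 73.4% identical.

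The second stretch covers coding bases 7 to 66 of Rps27 (exon 2, chr3:90213242-90213301, minus strand), a zinc-finger protein of the small subunit. It was shared base for base by Rps27rt, an annotated single-exon protein-coding retrogene (chr9:114982642-114982701, minus strand), and differed at 19 bases from Rps27l, its p53-inducible paralog (exon 2, chr9:66946831-66946890, plus strand).
Rps27: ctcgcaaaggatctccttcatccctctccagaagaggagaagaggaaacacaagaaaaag
Rps27rt: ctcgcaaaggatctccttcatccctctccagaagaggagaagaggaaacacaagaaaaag
Rps27l: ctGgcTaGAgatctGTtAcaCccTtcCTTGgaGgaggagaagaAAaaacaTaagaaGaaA
The coding sequences of Rps27 and Rps27l were 76.2% identical. Rps27 itself received 601 counts over all mice and Rps27rt 29397.

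The measured level of a ribosomal protein gene followed how much of its coding sequence was shared with other genes. Each coding sequence was cut into overlapping stretches of 50 bases (50-mers), and the percentage also present in an annotated transcript of another gene was taken, with levels given as mean counts per coding kb. The 12 members with less than 50% shared spanned 5562 to 14723 counts per kb, with a median of 9711. The 37 members with 50% to less than 100% shared had a median of 2080, and the 29 fully shared members a median of 329. Spearman's rho across the 78 members, which share their libraries, was -0.81 and is given as a description only.

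**Figure D1:**
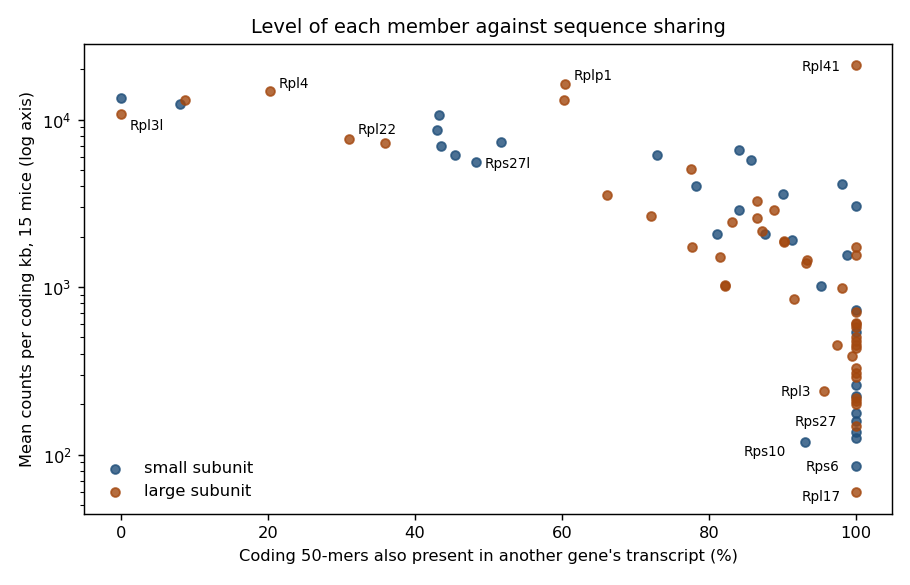
Mean counts per coding kb over 15 mice (log axis) against the percentage of coding 50-mers found in another gene's transcript, 1 point per member, coloured by subunit. Members with less than 50% shared (such as Rpl3l and Rpl4) lie between 5562 and 14723 counts per kb, and those with full sharing fall to 59.4 for Rpl17, with Rpl41 as the exception at 21078.

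Among members with largely private sequence, Rpl8 stood at 13118 counts per kb, Rps3 at 12330 and Rpl4 at 14723. Rpl3l, without a shared 50-mer, stood at 10820. All of these lie above 9711, the median of the 12 members with less than 50% shared, which spanned 5562 to 14723. By counts per kb the 3 highest members were Rpl41, which encodes the smallest ribosomal protein, at 21078, Rplp1 at 16361 and Rpl4, and the 3 lowest were Rpl17 at 59.4, Rps6 at 85.8 and Rps10 at 119. Of the 78 members, 72 had at least 1 near copy (another gene holding 20% or more of their coding 50-mers). In 62 of those 72 the copy with the most counts was annotated as a pseudogene, and in 68 it was a single exon. That copy received more counts than the member itself in 34 cases. Rps29, a small subunit zinc-finger protein, received 562 counts over all mice and its copy Gm14303 received 29131. Rps6, the substrate of the S6 kinases, received 961 and Rps6-ps4 16622, Rpl36a 990 and Rpl36a-ps2 19503, and Rpl10a 3745 and Rpl10a-ps1 46496. A level per kb of a member with shared sequence is therefore a count of the reads assigned to it, and the order of levels between such genes was not read further. Comparisons between mice are given below for each gene alone and, for Rpl3, Rpl12 and Rpl10a, also with the near copies added.

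The share of each library's counts on the 78 members was 0.502, 0.568, 0.527 and 0.538 in Low Control mice, 0.767, 0.542, 0.548 and 0.697 in Low Run mice, 0.531, 0.529 and 0.565 in High Control mice, and 0.534, 0.555, 0.774 and 0.797 in High Run mice (all in percent). Group means were 0.534% ± 0.0271 (SD, n = 4) in Low Control, 0.638% ± 0.112 (SD, n = 4) in Low Run, 0.542% ± 0.0204 (SD, n = 3) in High Control and 0.665% ± 0.139 (SD, n = 4) in High Run mice. In each Run group 2 mice stood above every Control mouse, D57 and D68 in Low Run and D53 and D62 in High Run, and the other 2 lay within the range of the Control mice. The Run groups therefore overlapped the Control groups.

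The same 4 mice were high when each member counted equally. The median deviation of the members from their own mean over mice, on the log2 CPM scale, was -0.10, 0.08, -0.24 and -0.13 in Low Control mice, 0.42, -0.26, -0.13 and 0.22 in Low Run mice, -0.07, -0.18 and -0.09 in High Control mice, and -0.23, -0.16, 0.38 and 0.45 in High Run mice. In D57, D68, D53 and D62, 74, 72, 73 and 75 of the 78 members lay above their own mean, against 2 to 20 in the other mice except D9, where 55 did. Of the 78 members, 25 were highest in D62, 21 in D53 and 21 in D57. Both subunits were high in these mice, and in D57 the median was 0.45 for small subunit and 0.39 for large subunit members, and in D62 it was 0.50 and 0.43. The 12 members with less than 50% of their sequence shared gave 0.43 in D57, 0.24 in D68, 0.37 in D53 and 0.49 in D62, and the 185 near copies that passed the filter gave 0.48, 0.25, 0.38 and 0.45.

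**Figure D2:**
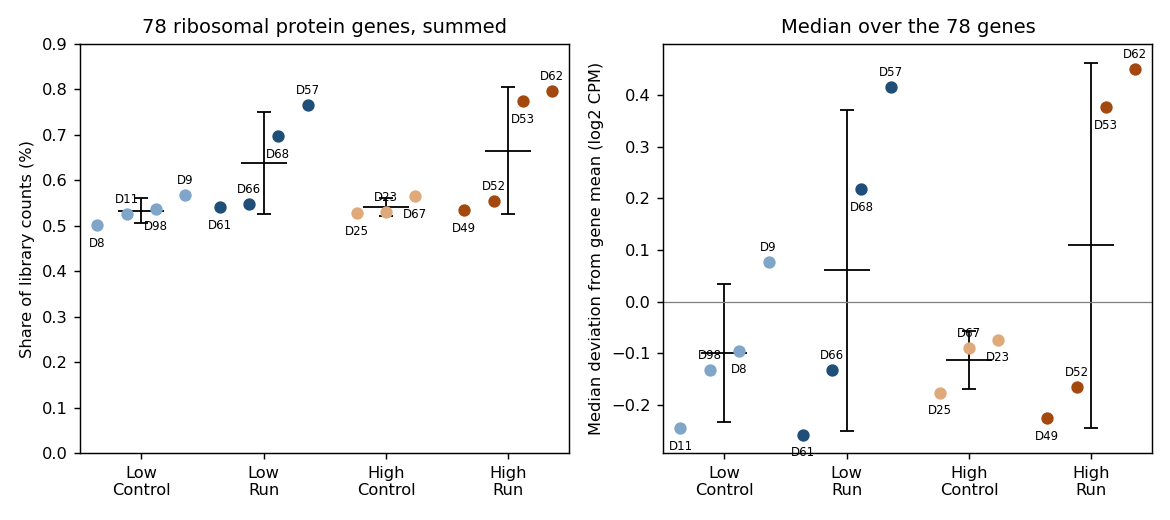
Left, percentage of library counts on the 78 members; right, median over members of the deviation of log2 CPM from the gene's mean; 1 point per mouse, with horizontal lines for group means and bars for the SD (n = 4, 4, 3 and 4). Mice D57, D68, D53 and D62 lie above all Control mice in both panels. The other Run mice lie within the Control range, except D61 in the right panel, which at -0.26 is just below the lowest Control mouse, D11 at -0.24.

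Other properties of the libraries moved in these mice, and their part in the member levels was tested only through the correction for length and GC content given here. Among other protein-coding genes, the 441 with a transcript under 800 bases had median deviations of 0.27 in D57, 0.28 in D68 and 0.36 in D53 but -0.06 in D62, and the 2427 with a transcript over 5000 bases had -0.23, -0.23, -0.23 and -0.02. The 77 mitochondrial ribosomal protein genes, which build the separate ribosome of that organelle, had 0.18, 0.28, 0.27 and -0.06. After a correction of each library for transcript length and GC content, the member median was 0.25 in D57, 0.04 in D68, 0.18 in D53 and 0.41 in D62, and in Control mouse D9 it was 0.27. Summed markers of other cell types did not single out the same 4 mice. The 5 erythroid genes summed to 277 CPM in D57, 825 in D68, 3856 in D53 and 1334 in D62, against 243 to 2379 in the other mice. The 8 macrophage genes summed to 259.9, 196, 251 and 129 CPM, against 96.8 to 284, and all 8 were detected in every mouse. The 4 neutrophil genes summed to 344 CPM in D68 and to 2.40 to 60.5 in all other mice, with Ly6g at 0 in some libraries. Over all 15 mice, adipocyte genes summed to 85.9 to 301.5 CPM, endothelial genes to 187 to 348, fibroblast genes to 599.5 to 1604, Schwann cell genes to 97.5 to 374, satellite cell genes to 25.9 to 71.3, slow fibre genes to 1873 to 4916, and lymphocyte genes, 4 of 6 of which were at 0 in some libraries, to 0.406 to 24.4. In bulk muscle, fewer cells of a type and less RNA per cell cannot be told apart.

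**Figure D3:**
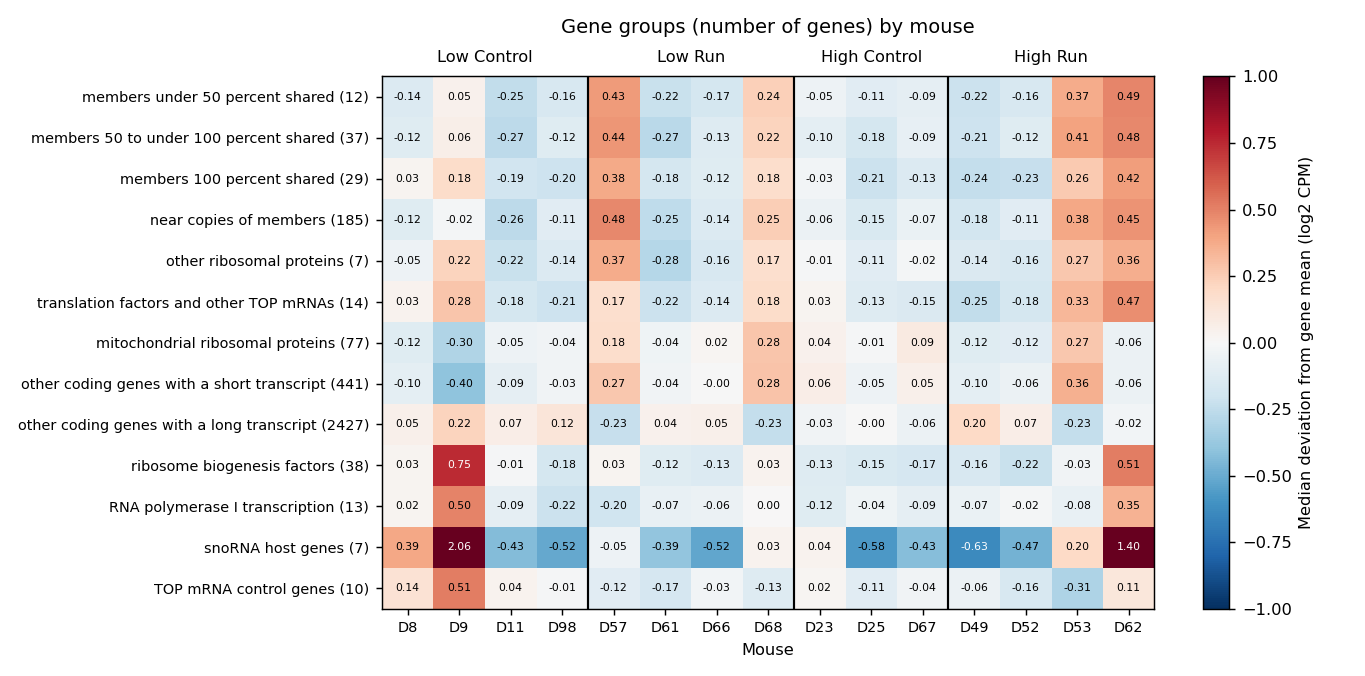
Median deviation from the gene mean (log2 CPM) for gene groups (rows, number of genes in parentheses) in each mouse (columns, ordered by group), with the value printed in each cell and colours limited to -1 and 1. The members, their near copies and the other ribosomal proteins are high in D57, D68, D53 and D62. Among the other ribosomal proteins Control mouse D9, at 0.22, lies above D68, at 0.17. Among fully shared members D9 and D68 both stand at 0.18. The mitochondrial ribosomal proteins are high in D57, D68 and D53, and the snoRNA host genes in D9 (2.06) and D62 (1.40).

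The first comparison asked what running did to the members in Low mice. At a false discovery rate (FDR, the p-value adjusted over all genes) of 0.1, edgeR called 0 members in Low Run minus Low Control, where 0% of all 16920 genes did; DESeq2 and voom also called 0 members. The members lay mostly above 0, with a median log2 fold change of 0.17 and 63 of 78 positive, against 51.9% positive and a median of 0.02 over all genes. The median fell to -0.01, beside -0.01 for all genes, after correction for length and GC content, and to 0.05 without mouse D57. At an unadjusted p under 0.05, 3 of 78 members (3.85%) were higher and 0 lower, where 5.92% and 7.52% of all genes were. With upper-quartile scaling, 12 members (15.4%) were higher, where 7.80% of all genes were and the median over all genes was 0.09. With TMM, members higher at p under 0.05 numbered 9 (11.5%) without D61, where 5.15% of all genes were. They numbered 6 (7.69%) without D66, where 5.46% of all genes were, and 4 (5.13%) without D9 (2.63%). Without D98, 3 were higher (3.85%, against 7.07% of all genes), and 7 passed in either direction. There was 1 without D8 (4.67% of all genes) or D11 (6.35%), and 0 without D57 (3.80%) or D68 (4.59%). Without D11, 3 passed in either direction. The share of all genes passing in either direction is not given for the fits without D98 or D11.

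With all mice, the 3 members higher at p under 0.05 were Rps16, Rpl35 and Rps27l. Rps16, a small subunit protein near the decoding site, had 10.7, 10.8, 8.80 and 11.7 in Low Control mice, 19.7, 10.3, 11.3 and 17.995 in Low Run mice, 10.9, 11.2 and 13.4 in High Control mice, and 11.6, 10.7, 14.7 and 16.5 in High Run mice (CPM). Mice D57 and D68 carried the difference of 0.50 ± 0.21 (SE; FDR = 0.358), and D61 at 10.3 and D66 at 11.3 lay within the Low Control range. Rpl35, a large subunit protein at the exit of the peptide tunnel, had 9.72, 9.89, 9.95 and 10.9 in Low Control mice, 20.01, 9.73, 11.6 and 14.9 in Low Run mice, 12.1, 10.7 and 12.4 in High Control mice, and 10.1, 11.4, 16.6 and 15.1 in High Run mice. D57 was the highest of all 15 mice, and D61 lay with the Low Control mice, for a log2 fold change of 0.47 ± 0.21 (SE; FDR = 0.359). Rps27l, the paralog of Rps27, had 49.3, 41.1, 54.7 and 55.2 in Low Control mice, 77.1, 47.3, 57.8 and 70.5 in Low Run mice, 51.1, 53.9 and 52.1 in High Control mice, and 50.7, 52.3, 58.2 and 62.3 in High Run mice. The log2 fold change was 0.34 ± 0.15 (SE; FDR = 0.362), and D61 again fell inside the Control range of 41.1 to 55.2. Rpsa, the laminin receptor and small subunit protein, came next at 0.33 ± 0.15 (SE; FDR = 0.372), followed by Rps26 at 0.33 ± 0.16 (SE; FDR = 0.372). Without D57 the values were 0.33 for Rps16, 0.25 for Rpl35, 0.23 for Rps27l, 0.18 for Rpsa and 0.21 for Rps26.

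Only Rpl31 and Rps2 were higher in every Low Run than in every Low Control mouse, 2 of 78 members where 3.35% of all genes were so, and 0 members were lower in every Low Run mouse, where 3.59% of all genes were. Rpl31, a large subunit protein at the tunnel exit, had 3.52, 4.31, 3.80 and 3.71 in Low Control mice, 5.55, 4.58, 4.56 and 4.61 in Low Run mice, 4.17, 3.32 and 4.88 in High Control mice, and 3.75, 3.72, 5.81 and 4.28 in High Run mice. The gap between the groups was 4.31 in D9 against 4.56 in D66, and the log2 fold change was 0.33 ± 0.18 (SE; FDR = 0.411). Rps2, which lines the mRNA entry channel, had 209, 213, 208 and 206 in Low Control mice, 303, 214, 218 and 246 in Low Run mice, 223, 209.8 and 243 in High Control mice, and 198, 195, 289 and 239 in High Run mice. Rps2 differed by 0.23 ± 0.15 (SE; FDR = 0.456), and the lowest Low Run value of 214 stood beside the highest Low Control value of 213. Among the 77 mitochondrial ribosomal protein genes, 14 (18.2%) were higher at p under 0.05, where 5.92% of all genes were, and the median was 0.23. Of the 441 other protein-coding genes with a transcript under 800 bases, 70 (15.9%) were higher, with a median of 0.28.

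The same comparison was made in High mice. No member passed an FDR of 0.1 in High Run minus High Control (edgeR), where 0% of all genes did, and DESeq2 and voom called 0 members. The median log2 fold change was 0.28, with 73 of 78 members positive, against 57.2% positive and a median of 0.05 over all genes. It was 0.20 after the length and GC correction, 0.13 without mouse D62, 0.38 without mouse D49 and 0.04 in voom with sample quality weights. At an unadjusted p under 0.05, 2 members (2.56%) were higher and 0 lower, where 3.28% and 1.90% of all genes were. Members higher numbered 17 (21.8%) without mouse D49, where 3.85% of all genes were, and 9 (11.5%) without D52, where 2.93% were. There was 1 without D67 (2.16% of all genes), and 0 without D62 (3.40%), D25 (2.68%) or D53 (3.64%). Without D53 the 1 member that passed was lower.

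With all mice, the 2 members higher at p under 0.05 were Rpl13 and Rpl3. Rpl13, a large subunit protein, had 13.5, 16.3, 11.3 and 12.4 in Low Control mice, 18.7, 10.8, 13.3 and 17.8 in Low Run mice, 12.9, 10.01 and 11.6 in High Control mice, and 12.1, 12.2, 28.8 and 23.4 in High Run mice. D53 and D62 were the highest of the 15 mice, D49 and D52 lay within the High Control range, and the log2 fold change was 0.74 ± 0.29 (SE; FDR = 0.956). The members with the next smallest p were Rpl39, a small protein lining the peptide tunnel, at 0.48 ± 0.24 (SE; FDR = 0.956), Rpl37 at 0.45 ± 0.23 (SE; FDR = 0.956) and Rpl30 at 0.53 ± 0.27 (SE; FDR = 0.956). Without D53 the values were 0.47 for Rpl13, 0.20 for Rpl39, 0.30 for Rpl37 and 0.31 for Rpl30. Rpl39 had 17.7, 16.2, 15.6 and 18.03 in Low Control mice, 25.7, 15.2, 18.1 and 22.7 in Low Run mice, 16.8, 16.8 and 16.7 in High Control mice, and 15.6, 18.1, 35.4 and 23.999 in High Run mice, so that D53 exceeded the other High Run mice and D49 lay below all 3 High Control mice. Rpl3 was the 1 member of 78 that was higher in every High Run than in every High Control mouse, where 3.47% of all genes were so, and 0 members were lower in every High Run mouse, where 3.60% of all genes were.

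**Figure D4:**
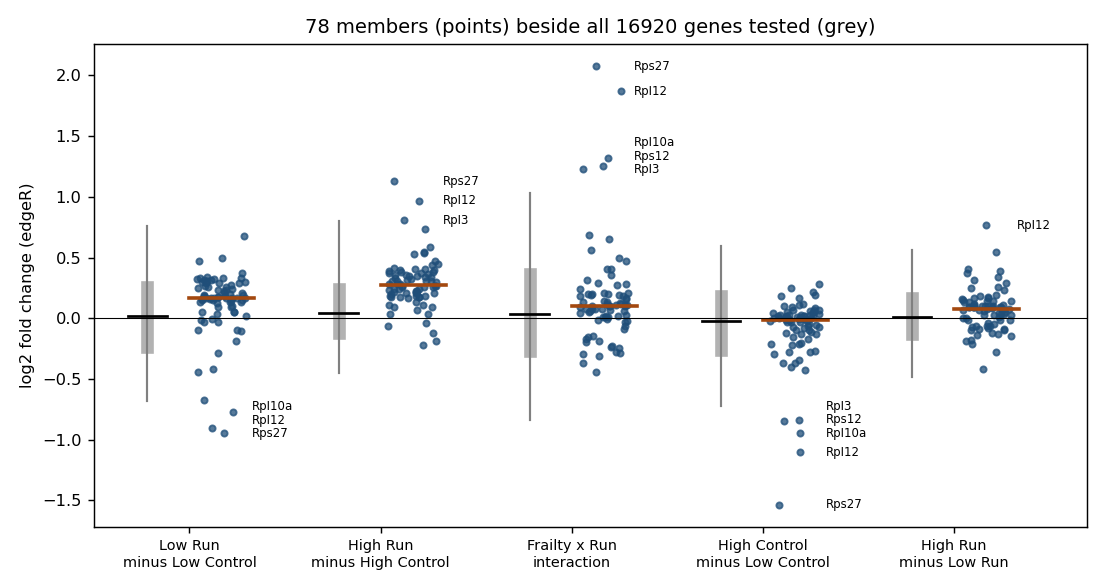
edgeR log2 fold changes of the 78 members (points, orange line for their median) in each comparison, beside all 16920 genes tested (black line for the median, grey box for the middle 50% and thin line for the middle 90%). Member medians are 0.17, 0.28, 0.10, -0.01 and 0.08, and the named members with an absolute value over 0.75 are Rps27, Rpl12, Rpl10a, Rps12 and Rpl3.

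Whether running acted differently in High and Low mice was addressed by the Frailty × Run interaction, the High difference minus the Low difference. No member passed an FDR of 0.1, where 0% of all genes did, and DESeq2 and voom called 0. The median was 0.10, with 58 of 78 members positive against 53.1% of all genes, and it was 0.20 after the length and GC correction, where the median of all genes was 0.014, and changed sign to -0.08 in voom, -0.02 without mouse D62 and -0.08 without D9 and D62 together. At p under 0.05, 3 members (3.85%) were positive and 0 negative, where 5.24% and 2.69% of all genes were. They were Rpl12 at 1.87 ± 0.75 (SE; FDR = 0.6), Rpl3 at 1.23 ± 0.50 (SE; FDR = 0.6) and Rps27 at 2.08 ± 0.86 (SE; FDR = 0.6). Rps12 at 1.25 ± 0.63 (SE; FDR = 0.6) and Rpl10a at 1.32 ± 0.67 (SE; FDR = 0.6) followed. Without D9 the values were 0.93 for Rpl12, 0.65 for Rpl3, 1.19 for Rps27, 0.51 for Rps12 and 0.46 for Rpl10a. With near copies summed, 0 members passed p under 0.05 in the interaction, where 5.26% of all genes were positive. Members positive at p under 0.05 numbered 0 without D9 (2.85% of all genes) or D62 (3.26%). There was 1 (1.28%) without D61 (5.55% of all genes) or D25 (3.58%). There were 5 (6.41%) without D11 (6.60% of all genes), D98 (7.55%) or D52 (5.11%).

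The groups were also compared at the same activity. In High Control minus Low Control the median was -0.01, with 34 of 78 positive against 47.2% of all genes, and 0 members passed an FDR of 0.1 in edgeR, DESeq2 and voom, where 0% of all genes did. At p under 0.05, 0 members were higher and 2 lower, Rps27 at -1.54 ± 0.65 (SE; FDR = 0.704) and Rpl3 at -0.84 ± 0.37 (SE; FDR = 0.704), where 1.80% and 4.06% of all genes were. The number lower was 0 without D9, D23 or D25, 1 without D67, and 5 without D11 or D98. These numbers were not set against the share of all genes lower in the same fits. No result about the members was read from them. Rpl12 at -1.10 ± 0.55 (SE; FDR = 0.704), Rpl10a at -0.95 ± 0.50 (SE; FDR = 0.704) and Rps12 at -0.85 ± 0.47 (SE; FDR = 0.704) followed. Without D9 the values were -0.64 for Rps27, -0.26 for Rpl3, -0.16 for Rpl12, -0.086 for Rpl10a and -0.10 for Rps12. With near copies summed, 0 members passed p under 0.05 in either direction, where 1.81% of all genes were higher. The share of all genes lower in that fit is not given. After the length and GC correction the member median was -0.10, where that of all genes was -0.013. In High Run minus Low Run the median was 0.08, with 54 of 78 positive against 52.2% of all genes, 0 members passed an FDR of 0.1 in any of the 3 tools, where 0% of all genes did, and 0 passed p under 0.05, where 1.52% were higher and 0.987% lower. The median of this comparison was -0.06 without mouse D62 and 0.22 without D57. The smallest p belonged to Rpl12 at 0.77 ± 0.50 (SE; FDR = 0.999), Rpl6 at 0.26 ± 0.18 (SE; FDR = 0.999) and Rps4x at 0.25 ± 0.19 (SE; FDR = 0.999), followed by Rpl13 and Rps28. Without D62 the values were 0.23 for Rpl12 and 0.11 for Rps4x, and without D53 that of Rpl6 was 0.15. These comparisons share their mice with the run comparisons above.

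Rpl3l was far more abundant than Rpl3 by counts in every mouse. Rpl3 (chr15:80077791-80091868, minus strand) had 10.1, 26.9, 9.24 and 7.72 in Low Control mice, 12.9, 7.93, 8.70 and 10.9 in Low Run mice, 8.38, 7.72 and 6.51 in High Control mice, and 10.04, 10.3, 12.6 and 19.8 in High Run mice (CPM). D9 and D62 were the highest, and every High Run mouse, from 10.0 upwards, exceeded every High Control mouse, of which the highest was 8.38. Rpl3l (chr17:24727820-24736143, plus strand) had 547, 424, 500.5 and 484 in Low Control mice, 586, 526, 514 and 547 in Low Run mice, 597, 539 and 609 in High Control mice, and 484, 462, 675 and 378 in High Run mice. Here D62 and D9 were the lowest and D53 the highest of the 15 mice. Rpl3l made up 8.69% of all counts on the members and stood at 10820 counts per coding kb against 240 for Rpl3. Since 95.7% of the 50-mers of Rpl3 occur in other transcripts and none of those of Rpl3l, the level of Rpl3 covers only the reads assigned to it, and the size of the gap between the genes was not read further. Rpl3 together with its 5 near copies had 31.6, 61.1, 31.3 and 25.7 in Low Control mice, 48.8, 30.8, 31.5 and 39.8 in Low Run mice, 24.8, 26.7 and 24.1 in High Control mice, and 33.7, 32.7, 50.4 and 56.7 in High Run mice, in which D9, D62, D53 and D57 were the 4 highest mice.

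The log2 fold change of Rpl3 was -0.42 ± 0.34 (SE; FDR = 0.554) in Low and 0.81 ± 0.37 (SE; FDR = 0.956) in High mice, and the Low value was 0.15 without D9 and 0.013 with near copies summed, and the High value was 0.53 without D62. For Rpl3l the values were 0.15 ± 0.15 (SE; FDR = 0.637) and -0.22 ± 0.17 (SE; FDR = 0.958), with an interaction of -0.37 ± 0.23 (SE; FDR = 0.613). In the pair of frailty comparisons Rpl3l had 0.25 ± 0.17 (SE; FDR = 0.704) between Control groups and -0.12 ± 0.15 (SE; FDR = 0.999) between Run groups.

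The log2 ratio of Rpl3l to Rpl3 counts was 5.75, 3.98, 5.76 and 5.97 in Low Control mice, 5.51, 6.05, 5.88 and 5.64 in Low Run mice, 6.15, 6.12 and 6.54 in High Control mice, and 5.59, 5.48, 5.74 and 4.25 in High Run mice. It averaged 5.36 ± 0.93 (SD, n = 4) in Low Control, 5.77 ± 0.24 (SD, n = 4) in Low Run, 6.27 ± 0.23 (SD, n = 3) in High Control and 5.27 ± 0.68 (SD, n = 4) in High Run mice. The 3 High Control mice had the 3 highest ratios of all 15 mice, and D9 and D62 the 2 lowest. The ratio was lower in High Run than in High Control mice by a log2 difference of -1.01 (two-sided exact permutation p = 0.0571, adjusted over the 5 comparisons 0.143), with 4 of 4 High Run mice below every High Control mouse and a smallest possible p of 0.0286, and the difference was -0.67 without D62. In Low mice the difference was 0.41 (exact permutation p = 0.657, adjusted 0.657), and it was -0.055 without D9. The interaction was -1.41 (exact permutation of the run labels within frailty groups, 2450 arrangements, p = 0.0327, adjusted 0.143), so it did not pass the correction, and it was -0.61 without D9 and D62 (exact permutation p = 0.0829, adjusted 0.167). High Control exceeded Low Control by 0.91 (exact permutation p = 0.114, adjusted 0.190), and High Run was below Low Run by a difference of -0.50 (exact permutation p = 0.171, adjusted 0.214). The former was 0.45 without D9, and the latter -0.17 without D62. With the near copies of Rpl3 added to its counts, the High difference was -0.99 (exact permutation p = 0.0286, adjusted 0.143) and the interaction -1.08 (exact permutation p = 0.0637, adjusted 0.143).

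**Figure D5:**
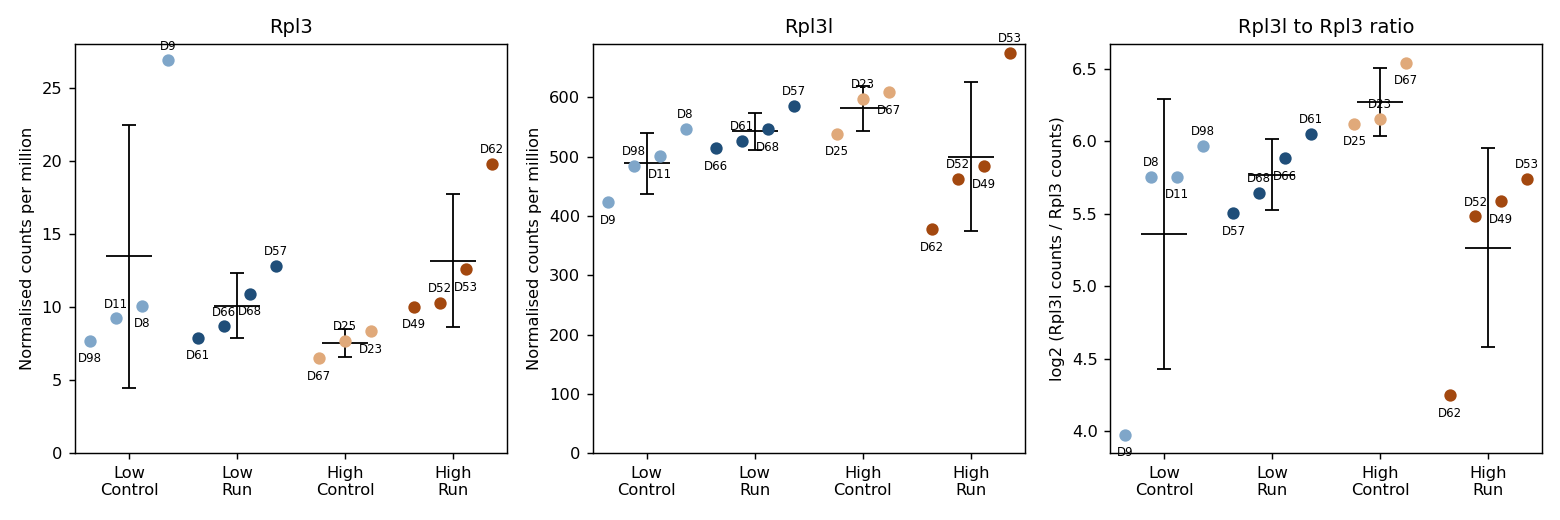
CPM of Rpl3 and Rpl3l and the log2 ratio of their counts, 1 point per mouse, with horizontal lines for group means and bars for the SD (n = 4, 4, 3 and 4). The 3 High Control mice have the highest ratios, and D9 (3.98) and D62 (4.25) the lowest.

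A small set of members varied between mice far more than the rest, and mice D9 and D62 held their highest values. The ratio of the highest to the lowest CPM over the 15 mice was 1.502 for Rplp0, the least variable member, and 9.39 for Rps27, 6.00 for Rpl12, 5.73 for Rpl10a, 4.91 for Rps12 and 4.13 for Rpl3. Each of these 5 had at least 95.7% of its coding 50-mers in other genes. Such sharing is common, as 29 of the 78 members were fully shared. Rps27 received 601 counts over all mice, and the part of counting error in its ratio was not tested. Rps27 had 1.78, 5.55, 1.11 and 0.849 in Low Control mice, 1.56, 0.865, 0.852 and 1.55 in Low Run mice, 0.811, 0.591 and 1.01 in High Control mice, and 0.864, 0.904, 1.48 and 3.72 in High Run mice, with D9 and D62 above all other mice. Rpl12, which sits at the base of the large subunit stalk, had 7.42, 27.2, 5.09 and 4.79 in Low Control mice, 7.57, 4.90, 5.67 and 5.71 in Low Run mice, 5.83, 4.54 and 5.17 in High Control mice, and 5.68, 5.84, 9.50 and 19.5 in High Run mice. Those for Rpl10a, a large subunit protein of the stalk opposite it, were 10.4, 31.6, 6.19 and 5.52 in Low Control mice, 7.95, 8.04, 6.48 and 9.12 in Low Run mice, 6.60, 6.54 and 7.80 in High Control mice, and 7.53, 6.57, 8.76 and 17.9 in High Run mice. In all 3 the other 13 mice lay in a narrower band, at or below 1.78 for Rps27, 9.50 for Rpl12 and 10.4 for Rpl10a. Rps12 followed the same order, with 24.1 in D9, 16.3 in D62 and at most 8.46 in the others.

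Adding near copies reduced these gaps. Rpl12 with its 7 near copies had 69.4, 96.1, 59.8 and 61.2 in Low Control mice, 94.6, 49.3, 56.7 and 78.6 in Low Run mice, 66.1, 61.5 and 63.6 in High Control mice, and 58.1, 55.8, 109 and 136 in High Run mice, so that D9 at 96.1 no longer exceeded D53 at 109. Rpl10a with its 2 near copies had 166 in D9 and 221 in D62, beside 167 in D57 and 169 in D53. The 7 snoRNA host genes, several of whose RNAs also begin with a TOP tract, were highest in the same mice, with a summed level of 486 CPM in D9, 350.3 in D62 and 89.3 to 166 in the others. The part of what sets these 2 libraries apart in the values of Rps27, Rpl12, Rpl10a, Rps12 and Rpl3 was not tested.

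The remaining named members are given by role. The stalk proteins Rplp0, Rplp1 and Rplp2 recruit the GTPase translation factors, and for all 3 the 4 highest mice were D57, D68, D53 and D62. Rplp0 had 459, 488, 447 and 427 in Low Control mice, 604, 452, 459.7 and 518 in Low Run mice, 473, 426 and 479 in High Control mice, and 436, 445, 569.6 and 639 in High Run mice. Rplp1 ranged from 180 to 318 and Rplp2 from 36.2 to 70.6 over the 15 mice. The log2 fold changes of Rplp0 were 0.16 ± 0.14 (SE; FDR = 0.59) in Low and 0.19 ± 0.15 (SE; FDR = 0.958) in High mice, those of Rplp1 0.29 ± 0.20 (SE; FDR = 0.481) and 0.28 ± 0.21 (SE; FDR = 0.958), and those of Rplp2 0.37 ± 0.21 (SE; FDR = 0.419) and 0.31 ± 0.23 (SE; FDR = 0.958).

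Rpl5 and Rpl11 form, with the small ribosomal RNA of the large subunit, the particle that binds Mdm2 when ribosome assembly is disturbed. Rpl11 had 11.02, 12.5, 11.5 and 10.04 in Low Control mice, 21.5, 11.1, 10.3 and 13.5 in Low Run mice, 8.92, 8.90 and 11.4 in High Control mice, and 11.2, 11.4, 16.1 and 14.02 in High Run mice, with D57 highest. Rpl5 differed from it in D57, D68 and D53, with 20.2, 14.1 and 16.5 against a range of 13.2 to 23.9 over all mice, and D62 and D9 were its highest. The log2 fold change of Rpl11 was 0.32 ± 0.21 (SE; FDR = 0.463) in Low and 0.44 ± 0.23 (SE; FDR = 0.956) in High mice, and that of Rpl5 was -0.10 ± 0.19 (SE; FDR = 0.814) and -0.04 ± 0.20 (SE; FDR = 0.992). Rps19, mutated in Diamond-Blackfan anaemia, had 29.2, 34.7, 29.9 and 33.04 in Low Control mice, 52.8, 28.4, 34.2 and 43.01 in Low Run mice, 30.7, 27.5 and 30.9 in High Control mice, and 30.8, 32.7, 40.3 and 52.6 in High Run mice. D57 and D62 were the highest, and the log2 fold changes were 0.32 ± 0.19 (SE; FDR = 0.435) and 0.40 ± 0.21 (SE; FDR = 0.956).

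Rps6, with 42 to 106 counts per library, had -0.10 ± 0.26 (SE; FDR = 0.882) in Low and -0.18 ± 0.28 (SE; FDR = 0.971) in High mice. Rpsa had 46.4, 51.6, 44.6 and 49.6 in Low Control mice, 77.6, 50.4, 50.1 and 63.01 in Low Run mice, 51.2, 51.4 and 50.03 in High Control mice, and 50.5, 47.998, 66.2 and 66.5 in High Run mice, with D57, D68, D53 and D62 above the other 11 mice. The members encoded on the X chromosome were Rps4x, Rpl10, Rpl39 and Rpl36a. Rps4x had 98.9, 105, 90.1 and 93.3 in Low Control mice, 143, 89.9, 91.003 and 118 in Low Run mice, 107, 103 and 94.4 in High Control mice, and 93.5, 105, 159.5 and 167 in High Run mice. Its 4 highest mice were again D62, D53, D57 and D68, and its log2 fold changes were 0.19 ± 0.19 (SE; FDR = 0.641) in Low and 0.37 ± 0.21 (SE; FDR = 0.956) in High mice. Rpl10, which reaches towards the peptidyl transferase centre, had -0.28 ± 0.33 (SE; FDR = 0.689) and 0.41 ± 0.36 (SE; FDR = 0.958), with D62 at 15.9 and D9 at 14.4 the highest of 15 mice. Rpl36a had 0.06 ± 0.23 (SE; FDR = 0.927) and 0.11 ± 0.25 (SE; FDR = 0.979).

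Rps27a is made as a fusion with ubiquitin. Rps27a, with 51 to 132 counts per library, had 0.20 ± 0.24 (SE; FDR = 0.692) in Low and 0.03 ± 0.26 (SE; FDR = 0.995) in High mice. Rpl22, a large subunit protein with a paralog in Rpl22l1, had 117, 119, 92.6 and 98.5 in Low Control mice, 141, 98.7, 96.7 and 133 in Low Run mice, 113, 104 and 97.04 in High Control mice, and 83.8, 111, 135 and 175 in High Run mice. D62 was the highest mouse for Rpl22 at 175 and for Rpl22l1 at 44.3.

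Outside the naming rule, 7 further genes of the cytosolic ribosome or its paralogs were measured, among them Rps3a1, Fau, Rack1, Rpl36al, Rpl22l1 and Rpl7l1. None of the 7 passed an FDR of 0.1 or an unadjusted p under 0.05 in any of the 5 comparisons in edgeR. Their median log2 fold change was 0.08 in Low and 0.12 in High mice. Rack1, the signalling scaffold on the small subunit, had 366, 452, 335 and 347 in Low Control mice, 502, 322, 325 and 438 in Low Run mice, 373, 362 and 368 in High Control mice, and 329.8, 346, 484 and 562 in High Run mice, with the same 4 Run mice among the 5 highest and D9 between them. Rps3a1 reached 131 in D53, the highest of 15 mice, and had 0.08 ± 0.22 (SE; FDR = 0.872) in Low and 0.37 ± 0.23 (SE; FDR = 0.956) in High mice. Fau had 2.12 to 3.65 CPM over the 15 mice and was lowest in D53.

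Of 14 further TOP mRNAs, which encode elongation and initiation factors, poly(A)-binding protein and similar proteins, 0 passed an FDR of 0.1 in any comparison in edgeR. At p under 0.05, 0 were called in Low mice, where 5.92% of all genes were higher and 7.52% lower, and 1 was higher in High mice, where 3.28% of all genes were. That was Eef1a1, the elongation factor that delivers aminoacyl-tRNA, at 0.54 ± 0.17 (SE; FDR = 0.956). It had 290.4, 343, 256 and 241 in Low Control mice, 405, 293, 270.2 and 303 in Low Run mice, 225, 252 and 243 in High Control mice, and 295, 338, 425 and 342 in High Run mice, and every High Run mouse exceeded every High Control mouse. Over the 14 genes the median was 0.05 in Low and 0.18 in High mice.

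Genes that build ribosomes had medians below 0 in Low mice. Of 38 ribosome biogenesis factors, 0 passed an FDR of 0.1 in any comparison in edgeR, and at p under 0.05 the counts were 0 higher and 4 lower in Low Run minus Low Control (5.92% and 7.52% of all genes), with a median of -0.23, and 0 in High Run minus High Control, with a median of 0.24. The 4 included Rrp12, an export factor of ribosomal subunits, at -0.59 ± 0.23 (SE; FDR = 0.358), the helicase Ddx21 at -0.85 ± 0.35 (SE; FDR = 0.358) and Sdad1 at -0.63 ± 0.26 (SE; FDR = 0.358). The interaction median was 0.47, with 7 of 38 positive at p under 0.05 and 0 negative, where 5.24% and 2.69% of all genes were. The 38 genes were high in D9, with a median deviation of 0.75, and in D62, with 0.51, and lay between -0.22 and 0.03 in the other 13 mice. Of 13 genes of RNA polymerase I transcription, 0 passed an FDR of 0.1, and 1, Taf1d at -1.33 ± 0.55 (SE; FDR = 0.358), was lower at p under 0.05 in Low mice. The 7 snoRNA host genes had medians of -0.99 in Low and 0.76 in High mice with 0 past an FDR of 0.1, and Snhg12 had 55.3 CPM in D9 and 30.4 in D62 against 3.80 to 10.6 in the others.

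Among 10 genes that control TOP mRNAs and growth, 0 passed an FDR of 0.1 in any comparison in edgeR, and 4 were lower at p under 0.05 in Low mice, where 7.52% of all genes were. Of the 2427 other protein-coding genes with a transcript over 5000 bases, 525 (21.6%) were lower in the same comparison, with a median of -0.21, and the part of transcript length in the values of the 4 genes was not tested. The 4 genes included Mtor, the kinase itself, at -0.46 ± 0.18 (SE; FDR = 0.358), its translational repressor target Eif4ebp2 at -0.42 ± 0.13 (SE; FDR = 0.358) and the S6 kinase gene Rps6kb1 at -0.27 ± 0.12 (SE; FDR = 0.362). Mtor had 64.9, 79.02, 62.004 and 55.1 in Low Control mice, 37.9, 52.97, 52.1 and 46.9 in Low Run mice, 48.002, 43.9 and 43.9 in High Control mice, and 58.8, 61.8, 34.4 and 57.2 in High Run mice. Every Low Run mouse lay below every Low Control mouse, and D53 and D57, with 34.4 and 37.9, were the lowest of all. The 10 genes together were highest in D9, with a summed level of 1702 CPM, and in D62, with 1389. They summed to 887 to 1214 in the others. In the interaction, 20% of the 10 genes were positive at p under 0.05 and 0% negative, where 5.24% and 2.69% of all genes were. In High Run minus High Control 0 of the 10 genes passed p under 0.05, with Eif4ebp2 at -0.30 ± 0.14 (SE; FDR = 0.956).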

How the data were processed

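Paired-end RNA-seq of gastrocnemius total RNA was available for 15 mice, 1 library each. The authors deposited whole-number counts per Ensembl gene, not normalised, and log2-scale variance-stabilised (VST) values from DESeq2, which the authors deposited for the same libraries and which were used here only for the Rpl3l to Rpl3 ratio. Per the labels and the study's methods, reads were aligned to mm10 with STAR 2.7.9a and counted with featureCounts (Subread 2.0.3 per the submitters' processing notes) using proper pairs with a single alignment and the gene's strand, mitochondrial genes left out. Reads that fit a member and a copy equally well are not counted under that rule, which lowers the members that share sequence, and its effect can differ between libraries.

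Symbols, lengths and coding sequences came from GENCODE M21 (GRCm38, the assembly of mm10), which named all 55450 genes. Counts were tested with edgeR 4.0.16 (R 4.3.3), trimmed mean of M-values (TMM) scaling, filterByExpr by group, 1 mean per group over all 15 mice and the quasi-likelihood F-test, with Benjamini-Hochberg adjustment over 16920 genes and calls at an FDR of 0.1. Standard errors were taken from the F statistic. CPM are TMM-scaled, and deviations use log2 CPM (prior count 2). The Rpl3l to Rpl3 log2 ratio, with 0.5 added to each count, was compared by two-sided exact permutation over mice (SciPy 1.17.1). Alternatives were DESeq2 1.42.0, voom (limma 3.58.1) with quality weights, other scalings and count filters, a loess correction (span 0.3) for length and GC content, and leaving out mice. Replicate libraries differed beyond counting noise in every group, by at least 17.2 times the chi-square expected per degree of freedom. Over all genes together, counting error was small beside this spread, and the number of mice limits the precision. That distance does not measure counting error in single members with few counts, such as Rps27 with 601 over all mice.

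Named members were Rpl3 and Rpl3l, members with a paralog, the stalk proteins, Rpsa, Rps6, Rpl5, Rpl11, Rps19, Rps27a, further ribosomal genes outside the naming rule, the 5 smallest p-values in each comparison and the 3 highest and 3 lowest levels per coding kb; genes of other lists were named where among the 3 smallest p-values of their list. Beyond this rule, Rpl8, Rps3, Rps29, Rpl31 and Rps2 were named after their values were seen. Some genes are not reported here by name. The members and lists were chosen with earlier results of these data known.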

Additional observations from a re-analysis of the deposited data

Results flagged for a closer look

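Dixon's criterion (gap to the nearest mouse divided by the group's range, above 0.829 for 4 mice) was applied to 129 groups of values. These came from all groups of 4 mice. It was met in 4 of the 129, each time by mouse D9 in the Low Control group. That is a smaller share than the about 1 in 20 that chance alone gives, and the values come from the same mice. On the log2 CPM scale the ratio was 0.905 for Rpl6, 0.880 for Rpl5 and 0.871 for Rpl37, all highest in D9. It was 0.893 for the log2 ratio of Rpl3l to Rpl3, lowest in D9.

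The Frailty × Run interaction of the log2 ratio of Rpl3l to Rpl3, -1.41, differed from 0 before correction (exact permutation p = 0.0327) and not after it (adjusted 0.143). The ratio was lower in 4 of 4 High Run mice than in any High Control mouse.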

How the results depend on the processing

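No member passed an FDR of 0.1 in any comparison under any alternative run (other scalings and filters, DESeq2, voom, the length and GC correction, each mouse left out, D9 and D62 left out together, FDR 0.05, and near copies summed, the last chosen after seeing the data). Over all genes, edgeR without a count filter called 86 in Low, 19 in High, 4 in the interaction and 6 in High Run minus Low Run, DESeq2 called 9 in Low and 15 in High, and voom called 45 in High, against 0 with the filter in edgeR. Without a count filter, 6 genes of the other lists were called in Low, 1 in High and 2 in the interaction.

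With each mouse left out, the member median ranged from 0.05 to 0.25 in Low, 0.13 to 0.38 in High and -0.018 to 0.24 in the interaction. Members at p under 0.05 in either direction numbered 0 to 9, 0 to 17 and 0 to 5. The shares of all genes given above for these fits cover higher or positive genes only. Shares in either direction are not given, so these ranges have no matching background. Upper-quartile scaling gave 12 in Low, where 7.80% of all genes were higher. The cause was not tested. The Low value of Rpl3 ranged from -0.61 to 0.15 with 1 mouse left out, and was 0.15 without D9 and D62 and 0.013 with near copies summed. Rps28 in High Run minus Low Run ranged from -0.62 to -0.25 with 1 mouse left out. It changed sign to 0.076 with near copies summed. The Low difference of the Rpl3l to Rpl3 log2 ratio ranged from -0.055 to 0.61, and was -0.055 without D9 and D62; its interaction ranged from -1.61 (without D98, exact permutation p = 0.0106, adjusted below 0.1) to -0.95. That of High Run minus High Control ranged from -1.16 to -0.67, of High Control minus Low Control from 0.45 to 1.11, and of High Run minus Low Run from -0.66 to -0.17. Without the 5 most abundant members the share of counts was 0.309% in Low Control, 0.375% in Low Run, 0.308% in High Control and 0.394% in High Run mice, and with the 10 most abundant genes taken out of the total it was 0.692%, 0.832%, 0.725% and 0.854% in that order, by construction. No paired analysis was possible because the groups share no replicate numbers.

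At 15 libraries and a median within-group SD of 0.29 (log2 CPM) per member, small shifts of single members could not be told from the spread between mice. For members with shared sequence, levels and fold changes cover only reads assigned to the gene itself.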

Other observations

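Rps27 summed with its near copies, of which Rps27rt took 29397 of 29411 counts, had 72.1, 97.4, 63.1 and 69.3 in Low Control mice, 114, 65.8, 68.9 and 91.8 in Low Run mice, 68.9, 70.01 and 71.1 in High Control mice, and 63.3, 69.2, 56.6 and 139 in High Run mice (CPM). Mouse D53 was the lowest of the 15 mice at 56.6, while 73 of the 78 members lay above their own mean in that mouse, and Rps27 alone had 1.48 CPM there. The cause was not tested.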
